A study of Mus musculus with 13 samples.

Results

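Of 13 mouse heart libraries in a series on an allele of Cpt1b called E3A, 4 carry a remark from the submitters that they are possible outliers; here they are called the noted libraries and are set against the 9 libraries without the remark. Cpt1b encodes the carnitine palmitoyltransferase of muscle mitochondria, and the series title describes a mouse whose enzyme is less sensitive to malonyl-CoA, its natural inhibitor. All hearts came from male C57BL/6N mice that were 13 weeks old and fed chow, and messenger RNA was captured by its poly(A) tail and sequenced as single-end reads. The noted libraries are 1 of 4 WT/WT hearts (replicate 1), 1 of 4 WT/E3A hearts (replicate 1) and 2 of 5 E3A/E3A hearts (replicates 1 and 2), which leaves 3 other libraries in each genotype. The labels do not name the region of the heart, nor whether each library is a separate animal, so that p-values measure the spread between these libraries. Sample titles begin with a prefix whose meaning the labels do not give: 3 of the noted libraries are all those of prefix C2, and the remaining noted library, WT/E3A 1, has the prefix C4 together with 3 others.

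The libraries held between 20082284 and 52602883 counted reads, and the noted ones between 23489907 and 52602883, so that the deepest library is a noted one (WT/WT 1). Levels are given below as CPM, counts relative to library size, after TMM scaling, which sets libraries on a common scale from the bulk of their genes, and differences as log2 of noted over other libraries with genotype in the model. Shares of reads are percentages of all counted reads, without TMM scaling. The TMM factors were 0.80 to 0.95 in the noted libraries and 1.03 to 1.09 in the others. A share can therefore be lower, or overlap, where scaled CPM are higher in the noted libraries. After a filter on low counts, 14534 genes were tested with edgeR's quasi-likelihood test. In the noted libraries 5352 genes were higher and 5519 lower at an adjusted p below 0.05, which is 36.8% and 38.0% of all genes tested. How the submitters arrived at their remark is not given in the sources used here; if it was set on these same counts, the p-values describe the separation and are no independent evidence for it. For 3746 genes (25.8%) all 4 noted libraries lay above all 9 others, and for 3889 (26.8%) all 4 lay below. All levels are relative to the reads of the library, so fewer cells of a type, less RNA per cell and unequal copying of RNA into reads cannot be told apart.

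A heart ventricle is dominated by the RNA of cardiomyocytes, whose most abundant messages encode the contractile filaments, the calcium store of the sarcoplasmic reticulum and the mitochondrial respiratory chain. The transcripts of these systems differ in base composition, in length and in where they are translated: messages of filament and ribosomal proteins are translated on free ribosomes, those of membrane and secreted proteins on the endoplasmic reticulum, and some long noncoding RNAs stay in the nucleus. Classes of this kind were therefore described one by one, each beside the same figures over all genes tested, whose median log2 difference was -0.02.

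Of the transcript features compared, the share of guanine and cytosine had the strongest rank correlation with the difference. To show what that contrast looks like, the first 120 coding bases are given for genes at both ends of 3 functional lists, with G and C in capitals; the genes were picked after their values were seen, by the highest and lowest difference among called members (Cd36 is the second lowest transporter). The sequences are spliced and come from the longest GENCODE M21 transcript on GRCm38. The contrast in these bases is clear for the first pairs and weak for the last one. In the list of the sarcoplasmic reticulum, Jph2 (chr2:163336242-163398049, minus strand), which encodes junctophilin 2 and ties the calcium store to the cell membrane, was higher by 1.01 and has G or C at 65.8% of the bases shown, while Pln (chr10:53337686-53345999, plus strand), which encodes phospholamban, the brake of the calcium pump, fell by 2.18 and has 44.2%. Among the transporters, Slc4a3 (chr1:75546044-75559431, plus strand), an anion exchanger, was higher by 1.09 (65.8%), and Cd36 (chr5:17781690-17888959, minus strand), the fatty acid translocase, fell by 1.37 (60 of the 120 bases).
Jph2: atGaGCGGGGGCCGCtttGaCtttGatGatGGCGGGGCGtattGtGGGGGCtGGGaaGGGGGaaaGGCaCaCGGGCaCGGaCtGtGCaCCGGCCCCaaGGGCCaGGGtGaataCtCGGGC
Pln: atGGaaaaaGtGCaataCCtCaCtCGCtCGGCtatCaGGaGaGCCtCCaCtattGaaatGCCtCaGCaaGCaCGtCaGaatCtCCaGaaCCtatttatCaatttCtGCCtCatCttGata
Slc4a3: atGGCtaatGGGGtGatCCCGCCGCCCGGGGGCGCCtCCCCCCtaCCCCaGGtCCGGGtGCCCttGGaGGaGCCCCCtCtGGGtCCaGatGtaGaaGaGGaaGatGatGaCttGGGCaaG
Cd36: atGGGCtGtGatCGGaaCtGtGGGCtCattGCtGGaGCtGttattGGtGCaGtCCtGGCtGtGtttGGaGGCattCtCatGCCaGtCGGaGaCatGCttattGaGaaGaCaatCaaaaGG
Among nuclear genes of the respiratory chain, Ndufa13 (chr8:69894163-69902558, minus strand) was higher by 1.92 with 66.7% G or C in this stretch, and Ndufb4 (chr16:37647602-37654368, minus strand) fell by 2.59 with 61.7%; both encode accessory subunits of complex I.
Ndufa13: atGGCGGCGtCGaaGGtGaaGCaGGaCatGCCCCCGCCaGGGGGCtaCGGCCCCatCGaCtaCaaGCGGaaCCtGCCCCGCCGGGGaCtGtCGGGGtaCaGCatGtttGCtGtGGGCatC
Ndufb4: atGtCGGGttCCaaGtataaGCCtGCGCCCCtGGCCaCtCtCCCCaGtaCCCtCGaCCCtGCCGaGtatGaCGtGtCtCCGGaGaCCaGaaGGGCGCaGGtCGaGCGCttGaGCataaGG

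Genes were placed in quintiles by the GC content of their longest transcript, which was known for 14418 genes (99.2%). The median log2 difference climbed from -0.83 in the lowest quintile through -0.35, -0.01 and 0.30 to 0.61 in the highest. Of the 2884 genes in the lowest quintile, 176 were higher and 2330 lower, and of the 2884 in the highest quintile 2161 were higher and 178 lower. Across genes, Spearman's rho between GC content and the difference was 0.67; genes of one library share its depth and preparation, so this is a description. The genes of the lowest quintile took 6.55% of the reads in WT/WT 1, 6.63% in WT/E3A 1, 8.31% in E3A/E3A 1 and 9.83% in E3A/E3A 2, against 14.1% to 15.7% (median 14.5%) in the 9 others. Those of the highest quintile took 33.9%, 33.9%, 29.7% and 26.7% in the same order, against 20.2% to 21.8% (median 21.2%). The noted and other libraries did not overlap in either share, and within the noted libraries the WT/WT and WT/E3A hearts lay farthest out and E3A/E3A 2 nearest to the others. One of the 9 others, WT/E3A 3, leaned slightly the opposite way: its own difference from the other WT/E3A libraries without the remark had a rho of -0.45 with GC content, against 0.55 to 0.68 in the noted libraries.

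**Figure D1:**
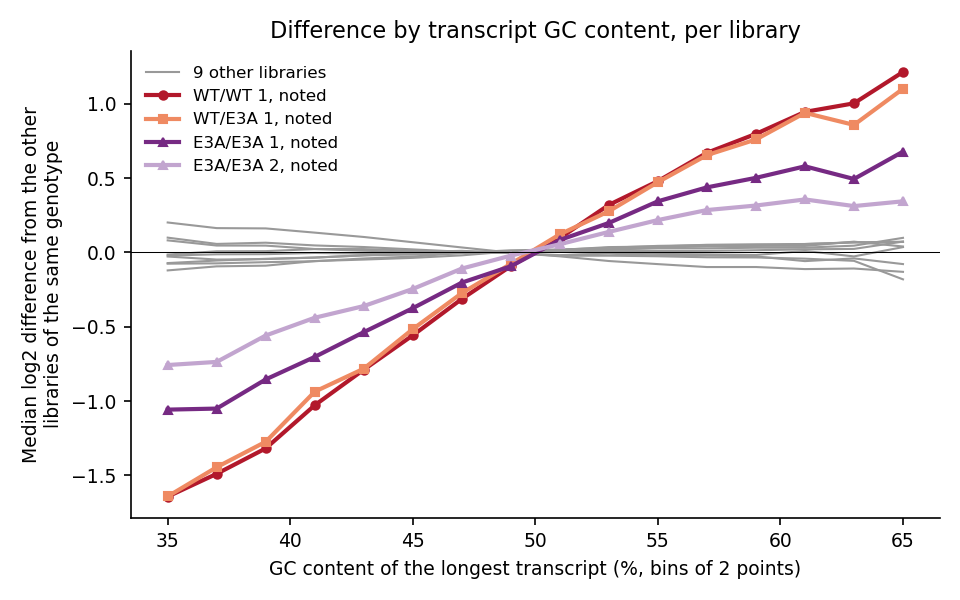
Median log2 difference of each library from the libraries without the remark in its genotype (vertical axis), over genes in bins of 2 percentage points of transcript GC content (horizontal axis). The 4 noted libraries rise from below 0 at low GC to above 0 at high GC with steeper lines in WT/WT 1 and WT/E3A 1, while the 9 others stay close to 0.

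The pattern held where GC was measured in the coding sequence alone (rho 0.62 over 13774 genes) or in the 3' untranslated region alone (0.55 over 13358 genes), and was weak for the 5' untranslated region (0.11 over 11914 genes). Transcript length moved with the note much less (rho -0.21), coding length hardly (-0.02) and length of the 3' untranslated region somewhat more (-0.29). The longest quintile of transcripts had a median of -0.28 (727 higher, 1546 lower of 2882) and the shortest 0.24 (1385 higher, 733 lower of 2884). When each gene's difference was taken relative to the median of genes in its own GC bin of 2 percentage points, the longest and shortest quintiles lay at -0.07 and 0.06, and rho was -0.06 for length and -0.14 for the 3' untranslated region. Within the lowest GC quintile, the median was -0.82 for the shortest quintile of transcripts and -0.91 for the longest; within the highest it was 0.72 and 0.58.

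Messages of the contractile filaments were higher in the noted libraries. Of 11 thick filament genes tested, 7 were higher and none lower, with a median of 0.94 over the list; the 4 not called were Myl2, Mybphl, Myl7 and Myl4, the last 2 of them atrial light chains. Of 10 thin filament genes, 7 were higher and 2 lower, with a median of 0.91. Both lists stayed above genes of like GC content, by a median of 0.59 and 0.67. The thick filament list took 13.1% of the reads in WT/WT 1, 13.2% in WT/E3A 1, 11.3% in E3A/E3A 1 and 9.90% in E3A/E3A 2, against 6.15% to 6.96% in the others, and the thin filament list 5.13% to 5.85% against 3.30% to 3.72%.

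Myh6, the adult ventricular myosin heavy chain of the mouse and the most abundant message of these lists, stood at 111581 CPM in WT/WT 1, 118017 in WT/E3A 1, 82285 in E3A/E3A 1 and 69173 in E3A/E3A 2, against 35915 to 43594 (median 39795) in the 9 others, a log2 difference of 1.27 (SE 0.09, edgeR adjusted p = 1.3e-07). All 4 lay above all 9. Cardiac troponin T, Tnnt2, stood at 20960, 20185, 18248 and 14957 CPM in the same order against 6983 to 7954 (median 7620), a difference of 1.31 (SE 0.07, adjusted p = 3.9e-08), again with no overlap. The other troponins of the heart, Tnni3 (1.37) and Tnnc1 (1.46), the tropomyosins Tpm1 (1.28) and Tpm2 (1.26) and the myosin-binding protein Mybpc3 (1.14) rose to a like degree. Cardiac actin, Actc1, did not follow them: it was measured at 9126, 8701, 10278 and 10060 CPM against 8973 to 10712, a difference of -0.08 that missed the threshold. Regulatory light chain Myl2 likewise overlapped the others (0.05), whereas the essential light chain Myl3 rose by 1.602. Nebl, which encodes nebulette, fell by 1.59; its transcript has 40.1% GC.

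Messages of titin and the Z-disc split. Ttn, which encodes titin, was measured at 3734, 4667, 4483 and 5404 CPM against 6214 to 7367 (median 7001) and fell by 0.61 (SE 0.08, adjusted p = 1.5e-05). All 4 noted libraries lay below all 9 others. Among 17 genes of titin and the Z-disc, 9 were higher, such as Tcap (1.57), Des (0.93) and Actn2 (0.92), and 6 lower, such as Pdlim5 (-1.07), Myot (-1.04) and Xirp2 (-0.91), with a list median of 0.23 and of 0.05 relative to genes of like GC content; scaled by library totals alone, which puts the median of all genes at -0.31, the list median turned to -0.06. Genes of the intercalated disc and cytoskeleton were split as well, 10 higher and 4 lower of 16, with a median of 0.20 that turned to -0.09 under library totals: Plec rose by 1.27 and Tln1 by 0.88, and Dmd, which encodes dystrophin, fell by 0.74.

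**Figure D2:**
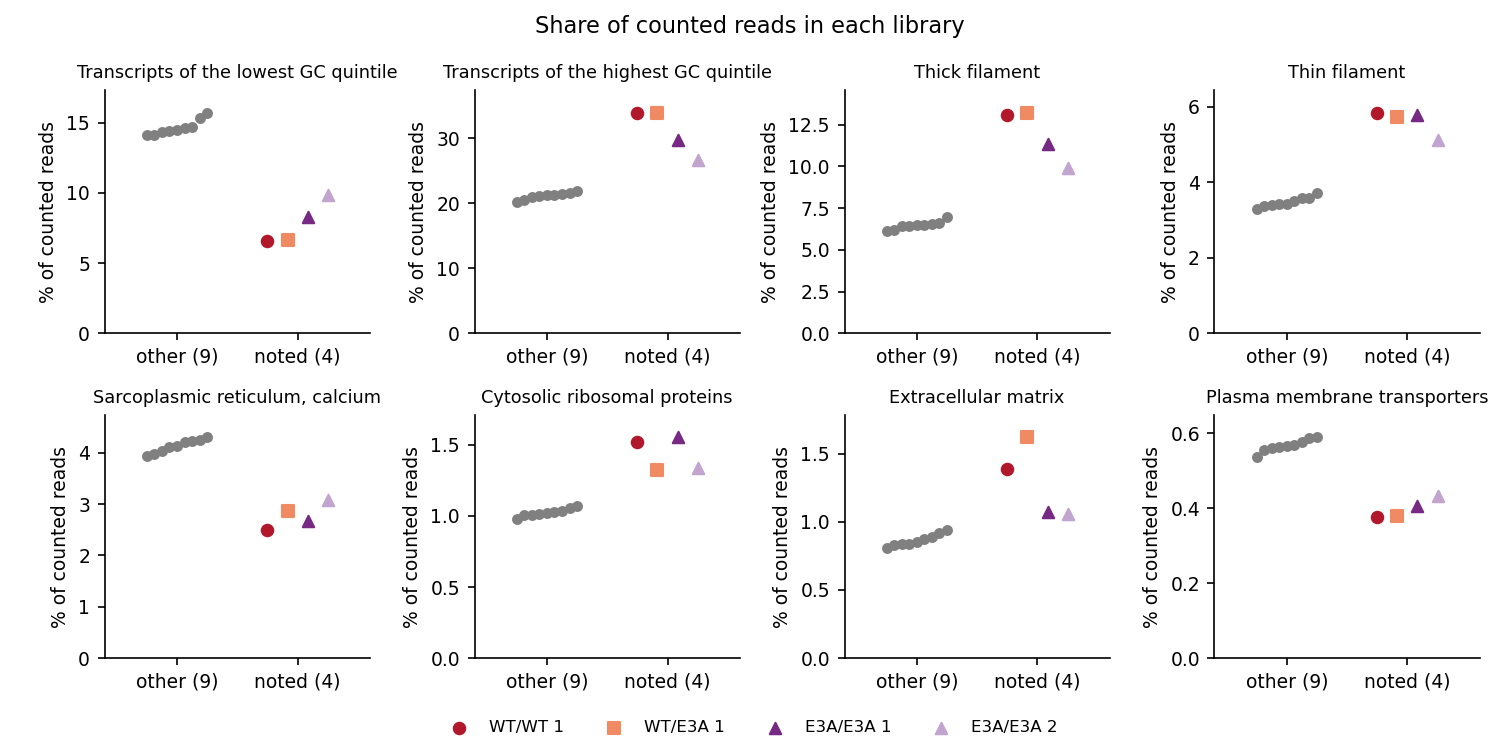
Percentage of counted reads (vertical axes, from 0) taken in each library by transcripts of the lowest and highest GC quintiles and by 6 gene lists; grey points are the 9 other libraries in order of value, coloured symbols the 4 noted ones. In each of the 8 panels all noted libraries lie on one side of all others; the thick filament list, for example, takes 9.90% to 13.2% against 6.15% to 6.96%.

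Genes of the sarcoplasmic reticulum and calcium handling went both ways. Pln stood at 913 CPM in WT/WT 1, 789 in WT/E3A 1, 1817 in E3A/E3A 1 and 2488 in E3A/E3A 2, against 5793 to 6563 (median 6052) in the others, and fell by 2.18 (SE 0.24, adjusted p = 2.2e-06). All 4 lay below all 9, the WT/WT and WT/E3A libraries lowest. Of 14 genes of the sarcoplasmic reticulum and calcium handling, 6 were lower, among them the channel subunit Cacna2d1 (-1.302), triadin, Trdn (-0.55), and the exchanger Slc8a1 (-0.47), and 3 were higher: Jph2, Hrc (0.78) and Itpr1 (0.19). The calcium pump itself, Atp2a2, was 18379, 22116, 17094 and 19032 CPM against 20450 to 23888, a difference of -0.23 (SE 0.06, adjusted p = 0.0022) in which the groups overlapped. Ryr2, the calcium release channel, differed by -0.09 and Casq2, the calcium buffer calsequestrin, by -0.09, neither past the threshold. The list took 2.49% to 3.09% of reads in the noted libraries and 3.94% to 4.30% in the others, without TMM scaling. That share leans on its most abundant members, Atp2a2 and Pln. Their means were 19155 and 1502 CPM in the noted libraries and 22657 and 6088 CPM in the others. The median of the list was -0.10 over the 14 genes and 0.20 relative to genes of like GC content. With a GC curve fitted to each library 7 were higher and 3 lower, with a median of 0.17.

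Receptors were more often lower than higher. Of 28 receptors tested, 17 were lower and 7 higher, with a median of -0.36. The bone morphogenetic protein receptor Bmpr2 had 19.1, 18.4, 34.4 and 55.7 CPM against 112 to 136 (median 121) and fell by 2.07 (SE 0.22), with no overlap. The angiotensin receptor Agtr1a (-1.53), the growth hormone receptor Ghr (-1.27) and the muscarinic receptor Chrm2 (-1.15) also fell. Fgfr1 (0.90), the natriuretic peptide receptor Npr1 (0.81) and Acvrl1 (0.59) rose. The beta-adrenergic receptor Adrb1 (0.07) did not pass the threshold.

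Of 20 plasma membrane transporters, 11 were lower and 4 higher, with a median of -0.29. Cd36 had 591, 548, 841 and 1126 CPM against 1737 to 2141 (median 1914), with no overlap (SE 0.16, adjusted p = 2.9e-06), and Slc4a3 had 986, 1072, 746 and 578 CPM against 374 to 429 (median 399), also with no overlap (SE 0.10, adjusted p = 6.0e-07). The fatty acid transport proteins Slc27a1 (0.78) and Slc27a4 (0.53) rose, so that the members of fatty acid uptake went in different directions; the glucose transporter Slc2a4 fell by 0.30. Among 20 ion channels and pumps, 7 were lower, with Kcnj3 (-1.38) and Kcnd2 (-1.34) lowest and the gap junction gene Gja1 at -0.70, and 6 were higher, shares near those of all genes; with a GC curve fitted to each library 14 were lower and 1 higher. Relative to genes of like GC content, these 3 membrane lists lay at -0.21, -0.32 and -0.36. The channels, whose plain median was -0.06, were thus farther below genes of like GC content than below all genes.

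A wider view of membrane proteins came from a count of hydrophobic segments, stretches of 19 residues with a mean Kyte-Doolittle hydropathy of at least 1.6, in the translated coding sequences. Genes with no such segment had a median of 0.02 (3494 higher and 3287 lower of 8786), and genes with 6 or more internal segments, typical of channels and transporters, a median of -0.26 (144 higher and 294 lower of 605). The median GC contents of these groups were 49.7% and 50.5%. Within the 5 GC quintiles, from lowest to highest, the group with 6 or more segments had medians of -1.11, -0.62, -0.26, 0.07 and 0.42, and the group with none -0.78, -0.28, 0.05, 0.35 and 0.65. The first group was the lower one in each of the 5 quintiles. Its median was -0.19 to -0.28 in the noted libraries taken one by one and -0.03 to 0.04 in the others. Genes whose only segment lies at the N-terminus, as in a signal peptide, had a median of 0.06.

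**Figure D3:**
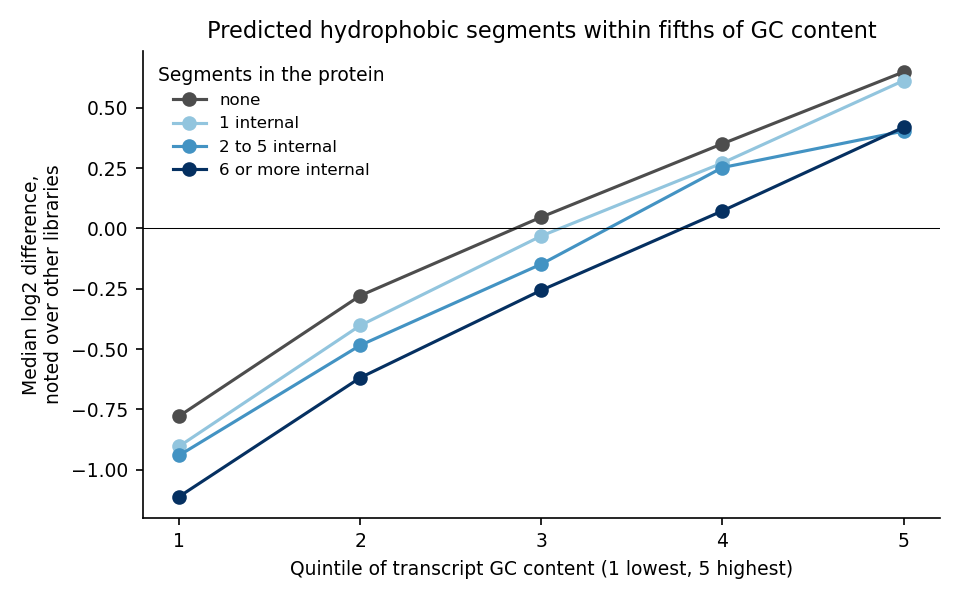
Median log2 difference of noted over other libraries (vertical axis) within quintiles of transcript GC content (horizontal axis), for genes grouped by the number of predicted hydrophobic segments in their protein. The 4 lines rise in parallel, and genes with 6 or more segments lie below genes with none in all 5 quintiles (0.42 against 0.65 in the highest).

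Most ribosomal protein messages were higher, and those that rose and those that fell had like median GC content. Of 77 cytosolic ribosomal protein genes tested, 56 were higher and 12 lower, with a median of 0.58, and 0.51 relative to genes of like GC content; the median GC content was 51.3% among the higher and 51.2% among the lower. The list took 1.32% to 1.55% of reads in the noted libraries and 0.98% to 1.07% in the others. Rpl37a had 299 CPM in WT/WT 1, 293 in WT/E3A 1, 240 in E3A/E3A 1 and 180 in E3A/E3A 2, against 60.7 to 66.5 (median 62.5), a rise of 2.01 with SE 0.09 and adjusted p = 2.4e-08. The stalk protein Rplp2 (1.996), Rps14 (1.93), Rpsa (1.75) and Rpl41 (1.62) rose as far or nearly so. Rpl28 (-0.80), Rps26 (-0.78) and Rpl39 (-0.73) fell, the first pair with no overlap between the groups. Rplp0, of the same stalk as Rplp2, was at 0.03 and not called. Many ribosomal protein genes have near-identical processed copies elsewhere in the genome, and the counts of such genes depend on how the authors' counting treated reads that match more than 1 place.

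Mitochondrial ribosomal proteins were split 45 higher to 22 lower of 77 (median 0.27, or -0.02 under library totals), from Mrpl52 at 1.74 to Mrps36 at -3.04. The nuclear genes of oxidative phosphorylation were split 42 to 27 of 79 (median 0.21, or -0.07 under library totals). Within complex I, Ndufa13 had 1252, 1213, 904 and 631 CPM against 247 to 280, and Ndufa12 had 9.99, 10.6, 22.2 and 31.1 CPM against 88.5 to 96.9 (median 92.6), a difference of -2.503 (SE 0.22, adjusted p = 3.6e-07). Both are subunits of one complex, with 60.4% and 51.5% GC, and in both the groups were far apart. Ndufb4, the lowest of the list, was at no more than 3.44 CPM in the noted libraries and at 8.81 to 10.3 in the others. Glycolysis had 13 of 16 genes higher and none lower (median 0.58), among them Pkm (1.35) and Pfkl (0.99). With a GC curve fitted to each library, 10 of the glycolysis genes were higher and 2 lower, with a median of 0.35. Of 38 proteasome genes 19 were higher and 13 lower (median 0.11).

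Of 35 extracellular matrix genes, 21 were higher and 12 lower, with a median of 0.45. Col1a1, a chain of type I collagen, had 897, 1111, 469 and 384 CPM against 166 to 203 (median 185) and rose by 1.95 (SE 0.18). Col3a1 (1.88), Col1a2 (1.79), elastin, Eln (1.68), and the basement membrane chain Col4a1 (1.62) rose with it, and perlecan, Hspg2, rose by 0.48, or was at -0.23 with a GC curve fitted to each library. Dcn, which encodes decorin, had 150, 146, 219 and 269 CPM against 389.5 to 465.9 (median 407) and fell by 1.19 (SE 0.12), and Lum (-1.75), Mgp (-1.68) and Bgn (-1.15) fell too. Col1a1 and Dcn are both products of fibroblasts, and their transcripts have 58.9% and 37.4% GC, but Bgn fell at 51.2% GC and Col5a2 rose by 1.62 at 49.6%.

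RNAs that stay in the nucleus, and messages of splicing and zinc finger proteins, were more often lower than higher. The medians of these lists lay close to genes of like GC content. Of 9 long noncoding RNAs that stay in the nucleus, 6 were lower and none higher, with a median of -0.49, and of -0.12 relative to genes of like GC content. Malat1 had 2229, 2162, 3420 and 2570 CPM against 2715 to 3957 (median 3438), a difference of -0.49 (SE 0.09, adjusted p = 0.00027) in which E3A/E3A 1 lay within the range of the others and which turned to 0.19 with a GC curve fitted to each library. Neat1, the scaffold of paraspeckles, had 1236, 1338, 1566 and 1259 CPM against 1128 to 1524 and a difference of 0.01. Airn (-1.24) and Kcnq1ot1 (-0.96), both long antisense RNAs of imprinted regions, fell with no overlap. Airn, at 46.5% GC, and Peg13 (-0.57), at 51.6%, lay well below the medians of their GC bins, -0.24 and 0.08. Genes of splicing and splicing regulation were lower in 21 and higher in 4 of 34, with Clk1 at -1.56 and Srsf10 at -1.52. Their median was -0.29, or 0.11 relative to genes of like GC content. With a GC curve fitted to each library their median was 0.15, and 17 were higher and 8 lower. Genes with 5 or more zinc finger motifs of the C2H2 type had a median of -0.40 (93 higher, 234 lower of 412) at a median GC content of 44.8%, and lay at -0.03 relative to genes of like GC content.

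Of 18 cardiac transcription factors, 11 were lower and 5 higher, with a median of -0.40, and the list lay farther down, at -0.57, relative to genes of like GC content. Mef2a (-1.59), Tbx20 (-1.53) and Mef2c (-1.51), all factors of the cardiac muscle program, fell with no overlap, as did the nuclear receptor Esrrg (-1.63). Its relative Esrra rose by 1.24 and the homeobox factor Nkx2-5 by 0.86. The locus of Esrra overlaps that of Trmt112, and whether the authors counted by strand is not given. Reads from the shared stretch may therefore not be told apart.

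**Figure D4:**
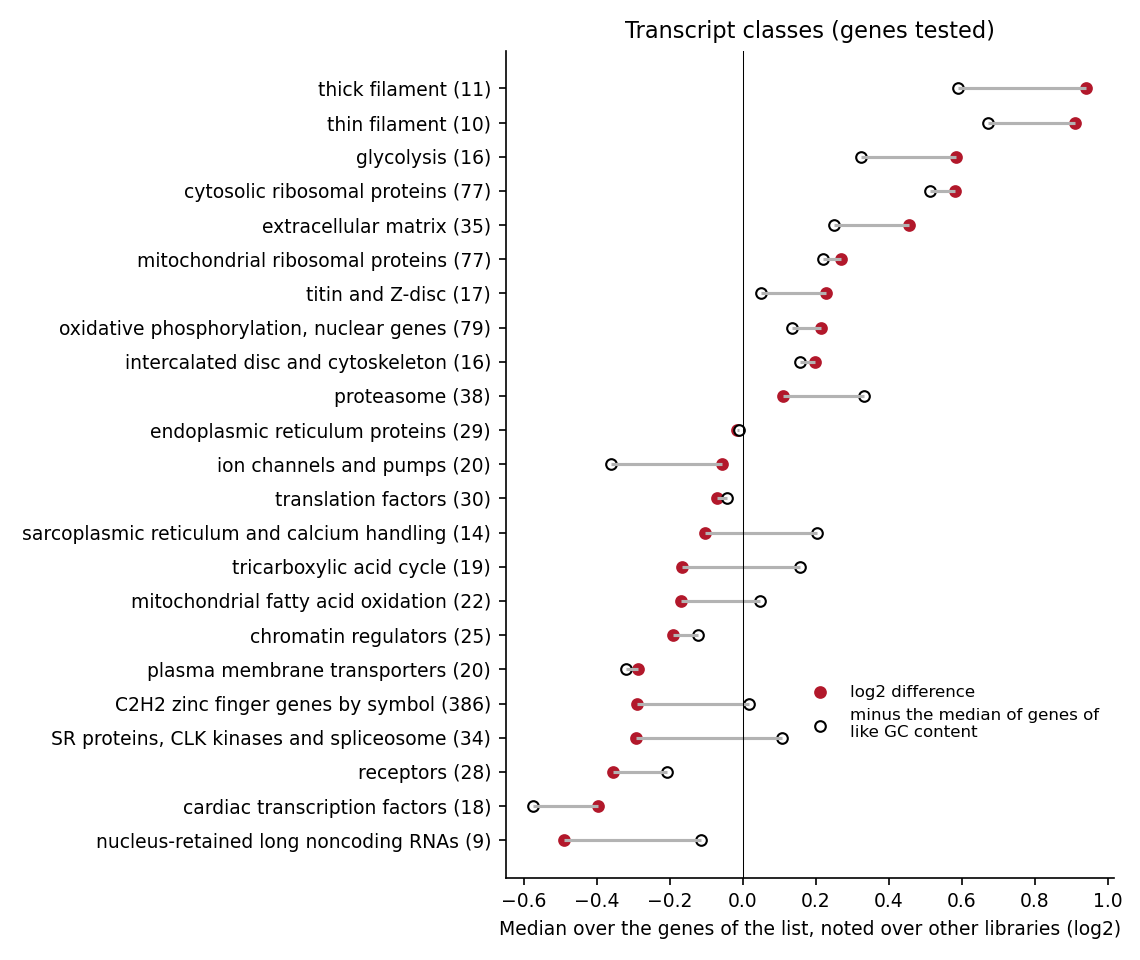
Median log2 difference of noted over other libraries (horizontal axis) over the genes of 23 lists, with the number of genes tested in brackets; filled points are the plain medians and open points the medians after subtraction of the median of genes in the same GC bin. Thick and thin filament genes and cytosolic ribosomal proteins stay above 0 by 0.51 or more, splicing and zinc finger genes move to near 0, and channels, transporters, receptors and cardiac transcription factors stay below.

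Named without regard to function, the genes that rose most among those with at least 20 CPM on average and no overlap between noted and other libraries were Romo1 (3.10), Siva1 (2.21), Ccdc85b (2.21), Tbcc (2.16), Shfm1 (2.14), Tnnt1 (2.12), Col16a1 (2.07), Rpl37a, Rplp2 and Crocc (1.99). Romo1, which encodes a small inner membrane protein of mitochondria, had 362, 353, 204 and 122 CPM against 27.3 to 32.3 (median 30.1), with SE 0.17 and adjusted p = 3.9e-08; its locus overlaps Nfs1. The GC contents of the genes that rose most, taken from the longest transcript, ran from 51.3% to 63.9% apart from Shfm1 at 42.8%. Which transcript of each gene is expressed was not tested. The genes that fell most were C230091D08Rik (-2.87), Tecrl (-2.64), Ogn (-2.62), Gpr22 (-2.61), B2m (-2.59), Ndufa12, Rnf13 (-2.28), Mrpl42, Lypla1 (-2.23) and Pln. B2m, the light chain of class I histocompatibility molecules, had 15.2, 11.6, 37.8 and 50.9 CPM against 124 to 164 (median 154), with SE 0.30 and adjusted p = 5.7e-06. Apart from Ndufa12, these transcripts had GC contents of 31.0% to 43.2%. C230091D08Rik overlaps Ube3a, Ogn overlaps Cenpp, Gpr22 overlaps Cog5 and Pln overlaps Cep85l.

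**Figure D5:**
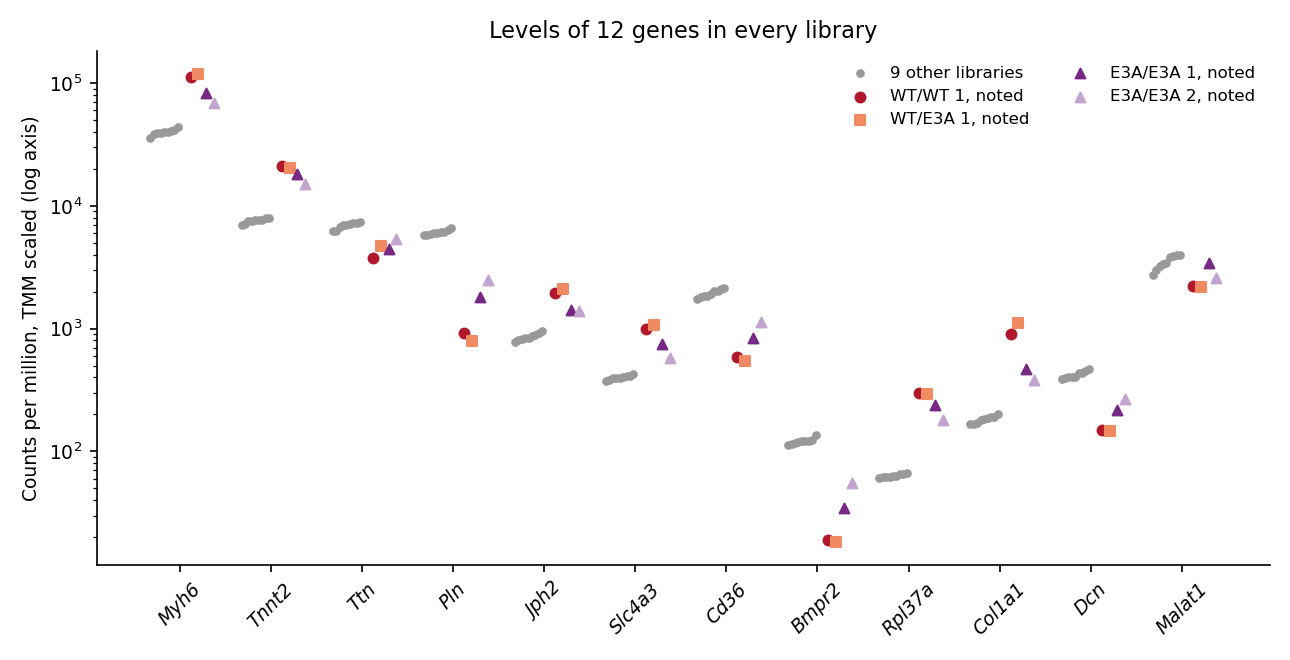
CPM, TMM scaled (vertical log axis), of 12 genes in every library; small grey points are the 9 other libraries in order of value and coloured symbols the 4 noted ones. Pln, Cd36, Bmpr2 and Dcn lie lower in all noted libraries, Myh6, Tnnt2 and Col1a1 higher, and Malat1 overlaps.

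Markers of cell types were read for signs that the noted hearts held other tissue. Most lists held genes of both directions, as did all genes tested, of which 36.8% were higher and 38.0% lower. Summed shares are of library totals, without TMM scaling. Of 12 cardiomyocyte markers 5 were higher and 3 lower, and they took 13.1% to 15.2% of reads against 9.98% to 10.7%, or 6.30% to 7.11% against 6.26% to 6.56% when Myh6 was left out. Of 16 endothelial markers 8 were higher (Cldn5 at 1.29) and 6 lower (Emcn at -1.64), with a median of 0.15 that turned to -0.14 under library totals, and their summed share overlapped, 0.245% to 0.302% against 0.256% to 0.308%. Of 12 fibroblast markers 7 were higher (Col1a1) and 4 lower (Lum), with summed shares of 0.404% to 0.606% against 0.271% to 0.320%. Of 11 smooth muscle and pericyte markers 5 were higher (Myh11 at 1.17) and 4 lower (Abcc9 at -0.81), with summed shares of 0.110% to 0.126% against 0.1496% to 0.158%. That share leans on Abcc9, the most abundant of these markers, with means of 371 CPM in the noted libraries and 657 CPM in the others. The next most abundant, Rgs5, was also lower, with means of 162 and 273 CPM. Notch3 (242 and 117 CPM), Pdgfrb (127 and 110 CPM) and Myh11 (168 and 75.5 CPM) were higher. The share without Abcc9 was not measured. Of 13 macrophage markers 4 were higher, among them the 3 chains of complement C1q, and 5 lower (Cd68 at -1.75), with overlapping shares of 0.030% to 0.034% and 0.027% to 0.035%.

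Of 12 atrial markers 2 were higher, Nppa and Stard10 (1.32), and 3 lower; the atrial light chain Myl7 was measured at 42.7, 38.4, 50.4 and 15.6 CPM against 7.44 to 74.8, and Nppa, a hormone of atrium and stressed ventricle, was at 383 to 540 CPM against 100 to 278, a rise of 1.54 (SE 0.17). Of 6 lung markers only Ager was tested, higher by 0.99 at no more than 1.01 CPM in any library. All 6 globin genes are listed at 0 reads in all 13 libraries, and since they are near-identical copies this may reflect the counting of reads that match more than 1 gene; Alas2, a red cell marker with a single copy, overlapped (9.98 to 17.8 against 7.22 to 16.6 CPM). Of 12 lymphocyte markers 6 were tested, 1 higher (Lck) and 1 lower (Ms4a1), all at no more than 2 CPM. The part of cell types in the differences above was not tested.

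The difference was present in each genotype but not equally large. Taken within a genotype, 4772 genes were higher and 4936 lower in the WT/WT heart, 4733 and 4720 in the WT/E3A heart, and 3809 and 4120 in the 2 E3A/E3A hearts, of 15023 tested. Of the genes called higher over all libraries, 98.0% had the same sign in the 3 genotypes, and of those called lower 99.1%; these are parts of the same data. A test of the interaction of note and genotype called 3190 of 15023 genes (21.2%). With 1 noted library in each of WT/WT and WT/E3A, that test compares those libraries, and genotype and the strength of the shift cannot be told apart. In a component analysis of all genes tested, the first component held 69.5% of the variance and placed the noted libraries at 83.2 (WT/WT 1), 84.7 (WT/E3A 1), 49.0 (E3A/E3A 1) and 25.6 (E3A/E3A 2) and all 9 others between -33.3 and -23.7. Leaving the note out of the model raised the common biological coefficient of variation from 11.9% to 29.0%. Cpt1b itself, whose E3A allele changes the protein and which these counts cannot check, was measured at 1.58, 1.82, 2.93 and 2.37 CPM against 2.48 to 3.74, a difference of -0.60 (SE 0.12, adjusted p = 0.0003) with overlap. These levels are low in all 13 libraries, and whether the counts capture all reads of Cpt1b was not tested.

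When genes were fitted with each library's own GC curve as an offset, an alternative added after the data were seen, 4699 genes were higher and 4779 lower; 64.2% of the genes called higher and 62.6% of those called lower in the first fit kept their call, and 7.49% and 10.2% were called in the opposite direction. Median differences under the offset were 0.60 for the thick filament, 0.65 for the thin filament, 0.52 for cytosolic ribosomal proteins, -0.59 for cardiac transcription factors and -0.24 for proteins with 6 or more segments. With the title prefix in the model, the comparison rests on WT/E3A 1 and the 3 other libraries of prefix C4, and 4286 genes were higher and 4251 lower. RNA quality values and dates of preparation were not used here, and the part of RNA quality, library preparation and tissue handling in these differences was not tested.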

How the data were processed

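Heart poly(A) RNA of 13 samples was measured as read counts per gene. Per the submitters' processing notes, the authors used STAR 2.4.0 and featureCounts 1.4.4 with mouse builds mm10 and GRCm38; the deposited values are whole-number counts, 1 table a library, not normalised. Whether reads were counted by strand, and how reads that match several genes were treated, is not given in the sources used here; no 2 files were identical. The 4 libraries with the remark and the 9 without were compared in edgeR 4.0.16 (R 4.3.3; quasi-likelihood test with robust estimates, TMM scaling, filter on low counts by design) with genotype as covariate, and p-values were adjusted by Benjamini-Hochberg over all 14534 genes tested. The interaction of note and genotype was tested in a second fit. Members, gene lists and tests were chosen with earlier results of these data known.

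GC content, length and coding sequence came from the longest GENCODE M21 transcript of each gene on GRCm38: 22749 of 24061 symbols matched directly, 934 through an older symbol, 361 not at all and 17 ambiguously. Proteins were translated from these coding sequences, in place of the RefSeq proteins named in the design, and scanned in windows of 19 residues. Lists are described by counts and medians beside all genes, and by medians after subtraction of the median of their GC bin, 2 percentage points wide. Genes named by rule were the 10 largest rises and falls among called genes with a mean of at least 20 CPM and every noted library outside the range of the others, the 2 most abundant members of each list (1 in each marker list), and Cpt1b; other genes were named after their values were seen, as were the 6 coding sequences shown. A few genes are not reported here. Alternatives were DESeq2 1.42.0, limma-voom (limma 3.58.1) with and without quality weights, other scalings, filters, covariates and transcript choices, each genotype alone, and each library left out. A GC curve of each library as an offset and the transcript with the longest coding sequence were added after the data were seen. The script for the test was tested on simulated data.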

Additional observations from a re-analysis of the deposited data

Results flagged for a closer look

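The difference between noted and other libraries depended on genotype for 3190 genes by edgeR's interaction test, and for 42 of the 82 genes named by rule; with 1 noted library in WT/WT and in WT/E3A, this compares those libraries. Most genes named by rule were picked for large differences or high levels, so their share is not set against that of all genes. The following are edgeR's adjusted p of the interaction of note and genotype. Among the largest rises they were Romo1 (0.013046), Ccdc85b (0.003137), Tbcc (3.569e-05), Shfm1 (0.0062), Tnnt1 (0.003889), Col16a1 (0.0005614), Rpl37a (0.023929), Rplp2 (0.008767), Crocc (0.019941). Among the largest falls they were C230091D08Rik (0.005787), Tecrl (0.002231), Ogn (0.001295), Gpr22 (0.0008935), B2m (0.0004019), Ndufa12 (0.000173), Rnf13 (0.001256), Mrpl42 (4.521e-05), Lypla1 (0.001023), Pln (0.0001085). Among abundant contractile, membrane and matrix genes they were Myh6 (0.004998), Mybpc3 (0.003281), Tpm1 (0.009458), Cd36 (0.001313), Slc4a3 (0.004815), Hspg2 (0.034082), Col4a1 (4.635e-05), Gsn (0.002898). Among abundant genes of the remaining lists they were Rps2 (0.001201), Rplp0 (0.029044), Mrpl12 (0.005472), Atp5a1 (0.003016), Pkm (0.001753), Ddx5 (0.00108), Chd4 (0.014253), Kmt2d (0.043723), Zfp651 (0.015796), H1f0 (0.01971), Tead1 (0.019115), Esrra (0.007645), Jund (1.599e-05), Hspb7 (0.002098), Psmc3 (0.034082).

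A library stood far from the rest of its group in 3 of 178 groups of values looked at, where chance alone gives about 1 in 20 groups; the gap to the nearest library is given as a part of the whole range. Kdr, an endothelial receptor, was lowest in E3A/E3A 2 (394 CPM against 496 to 505 in the remaining noted libraries, gap 0.9195). The share of reads of the thin filament was also lowest in E3A/E3A 2 among the noted libraries (gap 0.8397). Among the 9 other libraries, Rnf13 was highest in WT/E3A 3 (gap 0.4972).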

How the results depend on the processing

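Counts of genes higher and lower were 5447 and 5447 by DESeq2, 5386 and 5544 by limma-voom, and 4749 to 5483 and 4932 to 5632 with each library left out. Library totals alone gave 3341 and 7601, against 5352 and 5519, and a filter of at least 10 CPM, which tests fewer genes, gave 3641 and 3658.

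Scaled by library totals, median differences were 0.29 for cytosolic ribosomal proteins, -0.78 for nucleus-retained RNAs, -1.12 and 0.31 for the lowest and highest GC quintiles, -0.57 for the longest transcripts, -0.55 for 6 or more segments and -0.69 for C2H2 genes with 5 or more motifs. Directions turned for titin and Z-disc (-0.061), intercalated disc (-0.0902), mitochondrial ribosomal proteins (-0.02), oxidative phosphorylation (-0.0696), endothelial markers (-0.14), the shortest transcripts (-0.053) and 3' UTRs (-0.012), the most abundant quintile (-0.22), genes with no segment (-0.26) or an N-terminal one only (-0.23), and for Dsp (-0.13), Hsp90b1 (-0.065), Rplp0 (-0.25), Eef2 (-0.15), Eef1a2 (-0.27), Atp5b (-0.16), Hadha (-0.19), Neat1 (-0.28) and H1f0 (-0.056).

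With a GC curve of each library as an offset, which removes the trend by construction, the GC quintiles lay at -0.042 and 0.0028, the longest transcripts at -0.086, nucleus-retained RNAs at -0.074 and C2H2 genes at -0.074. Directions turned for the tricarboxylic acid cycle (0.12), fatty acid oxidation (0.0088), splicing (0.15), the most abundant quintile (-0.0035), N-terminal segments only (-0.044), Dsp (-0.0086), Hspg2 (-0.23), Rplp0 (-0.20), Eef2 (-0.39), Eef1a2 (-0.67), Atp5b (-0.031), Hadha (-0.033), Aldoa (-0.11), Malat1 (0.19), Kmt2d (-0.19), Zfp106 (0.048), Zfp651 (-0.0027), Ankrd1 (0.078) and Lyz2 (0.029).

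With the title prefix in the model, ribosomal proteins lay at 0.45, and Rplp0 (-0.24), Eef1a2 (-0.11), Ogdh (0.055), Ankrd1 (0.025) and Alas2 (-0.034) turned. Within WT/E3A, ribosomal proteins lay at 0.44, and Rplp0 (-0.24), Eef1a2 (-0.10) and Ogdh (0.054) turned. Within WT/WT, 6 or more segments lay at -0.30, and Neat1 (-0.13) and Wt1 (0.35) turned. Within E3A/E3A, 6 or more segments lay at -0.22 and C2H2 genes at -0.27, and H1f0 (-0.031) and Lyz2 (0.026) turned. C2H2 genes lay at -0.20 with at least 10 CPM, and the longest quintile at -0.097 when the shortest transcript of each gene was used. N-terminal segments only lay at -0.003 at a threshold of 1.9. Small differences turned for Ogdh by DESeq2 (0.012), limma-voom (0.0), no filter (0.0023) and scaling without the 50 most abundant genes (0.0005), for Rplp0 (-0.0093) and Wt1 (0.025) with quality weights, and for Eef1a2 (-0.0017) and Neat1 (-0.0085) with upper-quartile scaling. With each library left out, Rplp0 ranged from -0.017 to 0.13, Eef1a2 from -0.012 to 0.061, Ogdh from -0.02 to 0.012, Neat1 from -0.049 to 0.061 and Wt1 from -0.30 to 0.0089; the other 77 of 82 genes named by rule kept 1 direction. Except where values are given here, the cause of a change was not tested. No paired analysis was possible because the labels give replicate numbers no meaning across genotypes.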

Other observations

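Further lists were measured in the same comparison. Histone genes detected in poly(A) RNA were higher in 16 and lower in 3 of 22 (median 0.58), and genes of cardiac stress higher in 9 and lower in 3 of 14 (median 0.58). The tricarboxylic acid cycle had 7 higher and 10 lower of 19 (median -0.17), and mitochondrial fatty acid oxidation 7 higher and 11 lower of 22 (median -0.17); both medians turned above 0 with a GC curve fitted to each library. Translation factors had 12 higher and 14 lower of 30 (median -0.07), proteins of the endoplasmic reticulum 12 and 14 of 29 (median -0.02), chromatin regulators 9 and 13 of 25 (median -0.19), immediate early genes 7 and 4 of 23 (median -0.14), heat shock proteins and cochaperones 4 and 5 of 16 (median -0.11), and zinc finger genes taken by symbol 103 and 206 of 386 (median -0.29). Long intergenic RNAs had 23 higher and 77 lower of 160 (median -0.42).

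Counts for markers of other tissues cover the members tested, and stand beside 36.8% higher and 38.0% lower over all genes tested. White adipocyte markers had 2 of 6 higher and none lower, and brown adipocyte markers 3 of 3 higher. The brown adipocyte list also holds Ucp1 and Elovl3, which had 61 and 62 reads over all 13 libraries and were removed by the filter. Nerve and Schwann cell markers had 8 of 10 higher and 2 lower, and epicardial markers 3 of 7 higher and none lower. With a GC curve fitted to each library, none of the white and 2 of the brown adipocyte markers were higher, 3 of the nerve markers were higher and 2 lower, and 2 of the epicardial markers were higher. The abundant members Cox8b, of the brown adipocyte list, and Plin4, of the white one, were at means of 456 and 455 CPM in the noted libraries and 252 and 294 CPM in the others. Adipoq and Plin1, of the white adipocyte list, were at means of only 0.52 and 1.21 CPM in the noted libraries and 0.29 and 0.44 CPM in the others. These noted means lean on WT/WT 1, at 1.37 and 2.84 CPM, and E3A/E3A 2 was at 0.045 and 0.18 CPM. WT/WT 1 was also the highest of the 13 libraries for Cfd (5.89 CPM), Pck1 (5.66 CPM) and Cidec (0.89 CPM). Plin4 was highest in WT/E3A 1 (531 CPM). Whether reads of Cox8b and Plin4 came from fat cells, and their part in other results, was not tested. Skeletal muscle markers had 6 of 7 higher and 1 lower (median 0.70), yet took a smaller share of reads, 0.0793% to 0.114% against 0.127% to 0.141%, and Ckm, the most abundant member, fell by 0.27; with a GC curve fitted to each library 3 were higher and 1 lower. Of red cell markers, 1 of 2 tested was higher and none lower.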
